A study of Drosophila melanogaster with 12 samples.

Results

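Translation factors are the soluble proteins that load ribosomes onto mRNA and move them along it, and 44 genes for such factors were followed here in wing discs of Drosophila melanogaster. They are the genes whose FlyBase symbol starts with eIF (initiation) or eEF (elongation), without the exon junction helicase eIF4AIII, that reached a mean of at least 10 normalized counts over all libraries. The deposited table lists 52 genes with such symbols among 17869 gene rows. The other 8 fell below that minimum, and 10179 genes of all kinds passed it.

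In initiation, eIF2 with GTP brings the initiator tRNA to the small ribosomal subunit, where eIF1, eIF1A, eIF3 and eIF5 help to find the start codon. The eIF4 proteins bind the cap and unwind the mRNA, and eIF5B and eIF6 govern the joining of the large subunit. eIF2B recharges eIF2 with GTP, a step that is blocked when stress kinases phosphorylate eIF2alpha. In elongation, eEF1A brings in each aminoacyl-tRNA, the eEF1B subunits recharge it with GTP, and eEF2 moves the ribosome by a codon. Growth of the wing disc, the epithelial sac that forms the adult wing, is known to be sensitive to the dose of ribosomal proteins and translation factors.

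Total RNA was sequenced after removal of ribosomal RNA from 12 samples of 150 pooled discs each, taken from third-instar (L3) larvae 7 days after egg laying. The samples form 3 groups of 4, which the labels call biological replicates, and all carried the driver nub-Gal4 and the reporter UAS-mRFP. Controls carried nothing more, the second group also RNAi against ecd, and the third group RNAi against both ecd and Xrp1 (double RNAi). RNAi against Xrp1 by itself was not analysed here. The product of ecd (ecdysoneless) works with the spliceosome component Prp8, and Xrp1 encodes a stress-induced bZIP transcription factor. The driver is active in the domain of nubbin, the wing pouch, so each disc also held tissue without RNAi, and in such bulk samples fewer cells of a type and less RNA per cell cannot be told apart.

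The values are the authors' normalized counts, with sums per library of 26500844 to 28994135 in the control group, 32368922 to 35397850 in the ecd RNAi group and 29133078 to 32260828 in the double RNAi group. Between 16.5% and 19.8% of the control signal was ribosomal RNA, and 20.2% to 28.7% in each RNAi group. Xrp1 rose from 4812 ± 252 in controls to 20882 ± 1745 with ecd RNAi (SD, n = 4 each) and stood at 5084 ± 772 with both RNAi transgenes (SD, n = 4). The transcript of ecd itself, the targeted gene, had no lower value under the ecd RNAi label, at 1498 ± 110.2 in controls, 1653 ± 245 with ecd RNAi and 1746 ± 61.7 with both (SD, n = 4 each), so it does not check those labels.

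All 10 markers of wing disc epithelium were above 0 in every library and ranged in sum over 100870 to 105931, 92650 to 105990 and 103956 to 120864 in control, ecd RNAi and double RNAi discs. The 10 fat body markers ranged in sum over 2514 to 78261, 3459 to 31485 and 3183 to 4195 in the same order. Controls 3 and 4 and ecd RNAi 3 and 4 were the libraries with high fat body sums, and counts without these 4 libraries stand beside the results. Those fits keep only replicates 1 and 2 of control and of ecd RNAi, with all double RNAi libraries. In a call lost there, the smaller groups and the fat body RNA cannot be told apart. The 8 hemocyte markers summed to 25136 to 29788, 10621 to 13189 and 20720 to 27160 in the same order of groups, without overlap between control and ecd RNAi. The ranges for the 4 tracheal markers were 36070 to 39317, 47762 to 76041 and 35419 to 48541, and for the 6 markers of adult muscle precursors 6194 to 6688, 5159 to 5569 and 6580 to 7693. The 4 neuronal markers ranged over 770.03 to 2277, 811 to 2729 and 721 to 2690, the 2 glial markers over 77.8 to 119.7, 359 to 472 and 104 to 198, and the 2 germline markers over 13.9 to 220.2, 7.80 to 167 and 1.02 to 62.6. The tracheal, muscle precursor and glial sums also did not overlap between control and ecd RNAi. No marker listed here was at 0 throughout a group, and the part of these cell types in the results was not tested.

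To compare levels between genes, values were divided by the length of the union of a gene's exons. In control discs eEF1alpha1, the main gene for eEF1A, stood highest at 113037 ± 6507 normalized counts per kb of exon (SD, n = 4). It was followed by eEF5, which carries hypusine and frees stalled ribosomes and is also named eIF5A, at 42846 ± 2252 per kb, and eEF2 at 39320 ± 1757 per kb (SD, n = 4 each). The libraries of eEF5 and eEF2 overlapped on this scale, and those of eEF1alpha1 lay above both. The helicase eIF4A, which unwinds the leader of the mRNA, was the highest initiation factor at 22170 ± 1203 per kb (SD, n = 4), followed by eIF1 at 7851 ± 589 per kb (SD, n = 4).

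The 13 subunits of eIF3, the scaffold between small subunit and mRNA, spanned a 3.89-fold range of mean level per kb, from 1733 for eIF3j to 6744 for eIF3i. Most neighbours in this order overlapped between libraries. The 5 subunits of the exchange factor eIF2B lay close together and lower, between 560.4 per kb for eIF2Balpha and 797 per kb for eIF2Bbeta. At the low end were eIF2D at 445 per kb, the second eEF1A gene eEF1alpha2 at 341 per kb, the selenocysteine factor eEFSec at 111 per kb, and the testis-type cap proteins eIF4E5 and eIF4G2 at 47.7 and 39.5 per kb.

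**Figure D1:**
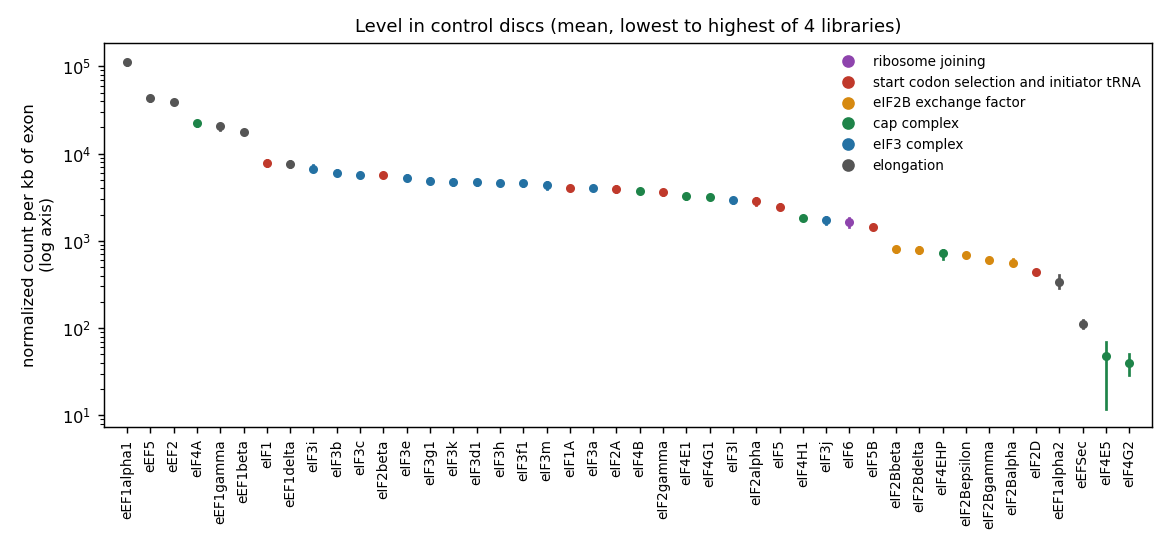
Level of the 44 factors in control discs in normalized counts per kb of exon on a log axis, ordered by mean; points are means of 4 libraries, lines run from the lowest to the highest library and colours give the role. The level runs from 113037 per kb for eEF1alpha1 to 39.5 per kb for eIF4G2.

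Together the 44 genes took 3.77% to 3.89% of the signal of protein-coding genes in control libraries, and the ranges for ecd RNAi and double RNAi were 4.19% to 4.58% and 3.497% to 3.91%. Every ecd RNAi library lay above all others. Without eEF1alpha1 and eEF2 the shares were 1.85% to 1.89%, 1.82% to 1.93% and 1.69% to 1.91%, and the groups overlapped. The higher share of coding signal with ecd RNAi thus lay in those 2 genes, which took 1.92% to 2.02%, 2.34% to 2.65% and 1.80% to 2.00%. Of the signal of all gene rows, ribosomal RNA included, the 44 genes took 2.76% to 2.92%, 2.42% to 3.12% and 2.24% to 2.66%. On that scale the control and ecd RNAi libraries overlapped.

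The comparison of ecd RNAi with control asks how RNAi against ecd in the wing pouch changes gene expression. Of the 44 factors, 6 rose and 14 fell, by limma on log2(normalized count + 1) with a Benjamini-Hochberg adjusted p under 0.05 over all tested genes. The factors that rose were 13.6% of the set and those that fell 31.8%, beside 22.4% of all tested genes higher and 25.4% lower, so the set as a whole was called about as often as other genes. Its median log2 change was -0.091, beside -0.042 over all tested genes, but -0.044 beside -0.039 without ecd RNAi 4 and -0.033 beside -0.0080 without the 4 libraries high in fat body RNA. The rises were eIF6, eIF2D, eEF2, eIF2A, eIF4A and eIF3f1. Only eIF6 and eIF2D were called with a change of at least 2-fold, 2 of the 44 factors beside 1237 of all 10179 tested genes. The falls were eIF1, eEF1delta, eIF4H1, eIF2Balpha, eIF5, eIF3j, eIF4G1, eIF2gamma, eIF3a, eIF4B, eIF5B, eIF2alpha, eIF2Bdelta and eIF3d1. Without the 4 libraries high in fat body RNA 7 factors rose and 11 fell, beside 1948 and 2142 of all 9652 tested genes. With the replicate number as a block, fitted to control and ecd RNAi alone, 9 factors rose and 18 fell, beside 2441 and 2842 of all 10179 tested genes. By the authors' deposited table, 22 factors passed, 8 higher and 14 lower, where 39.6% of all genes with an adjusted p passed, and 20 of the 22 passed here too.

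The comparison of double RNAi with ecd RNAi asks how adding RNAi against Xrp1 changes gene expression. The double RNAi discs carried a further RNAi transgene, and the ecd transcript was not lower in either RNAi group. A weaker RNAi against ecd thus cannot be told apart from an effect of RNAi against Xrp1. Here 13 factors rose, 29.5% of the set beside 26.7% of all tested genes, and 7 fell, 15.9% beside 20.6%. The median log2 change was 0.081, beside -0.013 over all tested genes, and 0.043 without ecd RNAi 3. It turned to -0.015, beside 0.0075 over all tested genes, without the 4 libraries high in fat body RNA, and was 0.038 beside 0.061 after quantile normalization. Without the 4 libraries high in fat body RNA 9 factors rose and 13 fell, beside 2107 and 2016 of all 9652 tested genes. After quantile normalization 13 factors rose and 12 fell, beside 3011 and 2043 of all 10179 tested genes. The authors' deposited table calls 21 factors, 13 higher and 8 lower, where 42.2% of all its genes passed, and 20 of the 21 passed here too. Both comparisons share the ecd RNAi libraries, so the values of a factor in them are given side by side and not as separate evidence.

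Between double RNAi and control 1 factor rose, eIF2D, and none fell by limma, where 2.29% of all tested genes were higher and 2.1% lower (233 and 214 genes, and 232 and 444 with all libraries scaled to equal medians). Without the 4 libraries high in fat body RNA 1 factor rose and 0 fell, beside 209 and 265 of all 9652 tested genes. At an unadjusted limma p under 0.05 there were 4 of the 44 factors, beside 2187 of all 10179 tested genes. The authors' deposited table calls 4 factors, where 9.52% of its genes passed. The log2 changes of the 44 factors ran from -0.61 for eIF4E5 to 1.31 for eIF4G2, neither of them past the threshold, with a median of -0.0017 beside 0.0025 over all tested genes.

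**Figure D2:**
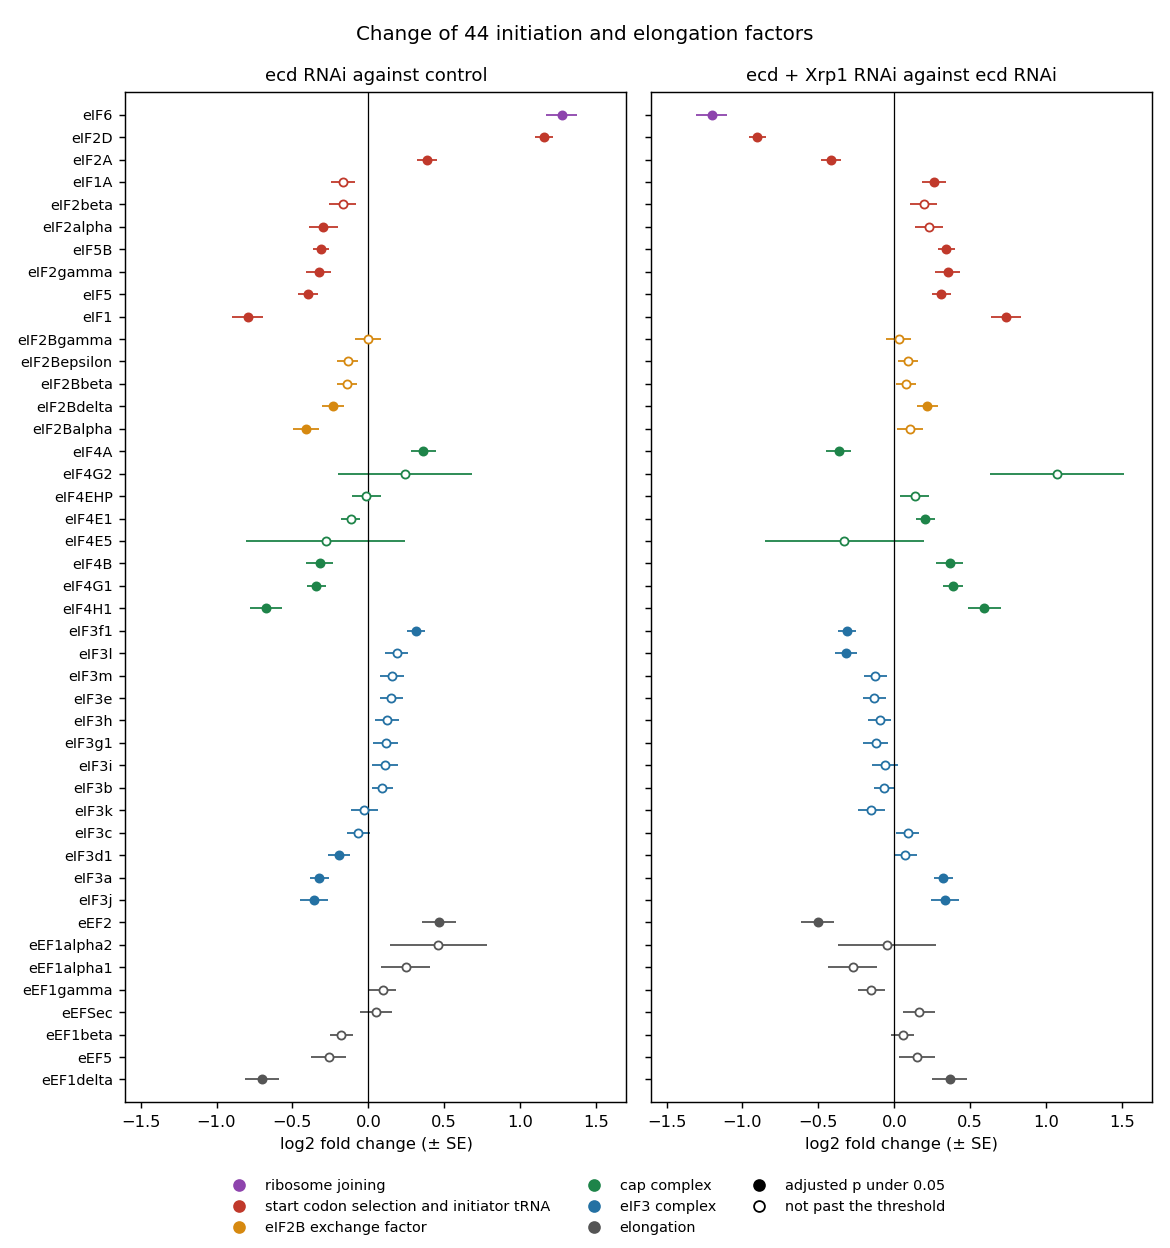
Log2 fold change ± SE (limma, 4 libraries per group) of the 44 factors for ecd RNAi against control (left) and double RNAi against ecd RNAi (right), grouped by role; filled points have an adjusted p under 0.05. On the left 6 factors rose and 14 fell and on the right 13 rose and 7 fell; both panels share the ecd RNAi libraries.

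The largest rise was that of eIF6, which binds the large subunit, keeps it from joining too early and is needed for making it. The gene (FBgn0034915, arm 2R) has 1 annotated transcript. In replicate order, eIF6 stood at 1923, 1846, 1504 and 1631 normalized counts in controls, 4876, 4435, 3752 and 3677 with ecd RNAi and 1966, 1727, 1875 and 1665 with double RNAi. Every ecd RNAi library lay above all others, and the controls and the double RNAi discs overlapped. The log2 fold change was 1.27 ± 0.10 (SE) with ecd RNAi, a factor of 2.42 (limma adjusted p = 5.77e-07), and -1.20 ± 0.10 between double RNAi and ecd RNAi (adjusted p = 1.19e-06). Against control the double RNAi discs differed by 0.071 ± 0.10 (adjusted p = 0.717).

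Among the 9 factors of start codon selection and initiator tRNA delivery, 2 rose and 5 fell with ecd RNAi, where 22.4% of all tested genes were higher and 25.4% lower, and 5 rose and 2 fell with double RNAi against ecd RNAi, beside 26.7% and 20.6%. The median log2 change was -0.30 and 0.26. The 2 that rose, eIF2D and eIF2A, are known to deliver initiator tRNA without eIF2 in mammalian systems. The other 7 work with eIF2, and of these eIF1A and eIF2beta did not pass with ecd RNAi.

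eIF2D lies on 3R:29149896-29151794 (BDGP6, minus strand), and its exons overlap those of Pglym78 on the other strand. In replicate order, eIF2D stood at 814, 791, 862 and 811 normalized counts in controls, 1987, 1862, 1717 and 1754 with ecd RNAi and 1009, 954, 965 and 979.6 with double RNAi. All 3 groups were separate, with the double RNAi discs between the others and nearer to control. The log2 fold change was 1.16 ± 0.056 with ecd RNAi (limma adjusted p = 5.81e-09), -0.90 ± 0.056 for double RNAi against ecd RNAi (adjusted p = 6.56e-08) and 0.25 ± 0.056 for double RNAi against control (adjusted p = 0.0239). The call against control was lost without control 1, 2 or 4 (adjusted p = 0.0610, 0.0794 and 0.0706) and without double RNAi 1, 2 or 3 (adjusted p = 0.0666, 0.0549 and 0.0596).

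In replicate order, eIF2A stood at 11896, 11796, 10366 and 10768 normalized counts in controls, 15670.1, 15152, 14506 and 13351 with ecd RNAi and 11204, 10617, 11480.3 and 10673 with both RNAi transgenes. All 4 ecd RNAi libraries were higher than any other. Its log2 fold change was 0.39 ± 0.066 with ecd RNAi (limma adjusted p = 0.000319) and -0.41 ± 0.066 for double RNAi against ecd RNAi (adjusted p = 0.000213).

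eIF1, the factor that keeps the small subunit scanning until a start codon pairs, had the largest fall. The gene lies on 3L:3223341-3224650 (BDGP6, plus strand). In replicate order, eIF1 stood at 5645, 5719, 4892 and 5129 normalized counts in controls, 3424, 3447, 2475 and 3051 with ecd RNAi and 5496, 5378, 4974 and 4687 with both. The ecd RNAi libraries lay below all others, which overlapped. It changed on the log2 scale by -0.80 ± 0.10 (limma adjusted p = 2.75e-05) and, for double RNAi against ecd RNAi, 0.74 ± 0.10 (adjusted p = 6.05e-05). eIF1A, its partner on the small subunit, stood at 7123, 7111, 7132 and 6501 in controls, 6374, 6771, 5275 and 6456 with ecd RNAi and 8018, 7694, 7171 and 6814 with both. Its change with ecd RNAi of -0.17 ± 0.079 did not pass (adjusted p = 0.0972), and it rose by 0.26 ± 0.079 on the log2 scale for double RNAi against ecd RNAi (adjusted p = 0.0161). That call of eIF1A was lost without double RNAi 1 (adjusted p = 0.0529) and without the 4 libraries high in fat body RNA (adjusted p = 0.0826).

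eIF5 triggers GTP hydrolysis by eIF2 at the start codon. In replicate order, eIF5 stood at 8424, 7766, 7526 and 7335 normalized counts in controls, 6029.8, 6476, 5365 and 5723 with ecd RNAi and 7404, 7600.4, 7149 and 7030.4 with both. Its ecd RNAi libraries lay below all others. It changed on the log2 scale by -0.40 ± 0.064 (limma adjusted p = 0.000223) and 0.31 ± 0.064 for double RNAi against ecd RNAi (adjusted p = 0.00157). Its exons overlap those of CG46312 on the same strand, so the counting could have split reads between them.

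eIF5B, the GTPase that joins the subunits, stood at 6486, 6560.1, 6327 and 6170.1 in controls, 5203, 5514, 4899.8 and 4989 with ecd RNAi and 6355, 6347, 6322 and 7112 with both. The control and double RNAi libraries lay above every ecd RNAi library. The log2 fold change of eIF5B was -0.31 ± 0.055 (limma adjusted p = 0.000428) and 0.34 ± 0.055 (adjusted p = 0.000225) in the same order.

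The 3 subunits of eIF2 each had a lower mean with ecd RNAi, and alpha and gamma passed. The gamma subunit, which binds GTP and the tRNA, stood at 8492, 8444, 7389 and 7529.5 in controls, 6974, 7012, 5759 and 5739 with ecd RNAi and 8414, 8431, 8108 and 7426 with both. It fell by 0.33 on the log2 scale (SE 0.083, limma adjusted p = 0.00535) and rose by 0.35 ± 0.083 for double RNAi against ecd RNAi (adjusted p = 0.00356). Its exons overlap those of Su(var)3-9 on the same strand, a gene known to share its promoter and leading exons. The alpha subunit, the target of the stress kinases, stood at 4679.9, 4517, 4144 and 3936 in controls, 3825, 3820.5, 3091 and 3361 with ecd RNAi and 4690.0, 4326, 3834 and 3675 with both. The double RNAi libraries overlapped both other groups. The change of eIF2alpha was -0.30 ± 0.093 (adjusted p = 0.0183) and, for double RNAi against ecd RNAi, 0.23 ± 0.093 (adjusted p = 0.0599). The first call was lost without control 1, control 2 or ecd RNAi 3 (adjusted p = 0.0577, 0.0513 and 0.0536) and without the 4 libraries high in fat body RNA (adjusted p = 0.0788), and the other comparison passed without ecd RNAi 1, ecd RNAi 2 or double RNAi 4 (adjusted p = 0.0440, 0.0425 and 0.0289). For eIF2beta the changes were -0.17 ± 0.090 (adjusted p = 0.143, and 0.0376 with the replicate block) and 0.19 ± 0.090 (adjusted p = 0.0963, and 0.0452 without ecd RNAi 2).

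Of the 5 subunits of eIF2B, 2 fell and none rose with ecd RNAi, with a median log2 change of -0.14. The share called was 40%, beside 47.8% of all tested genes. The alpha subunit is the regulatory subunit that senses phosphorylated eIF2. In replicate order, eIF2Balpha stood at 539, 622, 544 and 548 normalized counts in controls, 455, 415, 389.8 and 433 with ecd RNAi and 472, 408, 512 and 427 with both. Every library of either RNAi group lay below all controls, and the RNAi groups overlapped. Its log2 fold change was -0.41 ± 0.086 (limma adjusted p = 0.00154) with ecd RNAi, 0.10 ± 0.086 (adjusted p = 0.357) for double RNAi against ecd RNAi, and -0.31 ± 0.086 (adjusted p = 0.0662, and 0.0489 without double RNAi 3) for double RNAi against control. In the authors' deposited table the last change of eIF2Balpha passed, at -0.31 with an adjusted p of 0.0231.

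eIF2Bdelta fell by 0.23 on the log2 scale with ecd RNAi (SE 0.070, limma adjusted p = 0.0147, and 0.0531 without control 2). In replicate order, eIF2Bdelta stood at 1771, 1868, 1561 and 1669.9 in controls, 1555, 1548, 1427 and 1317 with ecd RNAi and 1683, 1629, 1675 and 1805 with both, with the ecd RNAi libraries below all others. It rose by 0.22 ± 0.070 for double RNAi against ecd RNAi (adjusted p = 0.0212), a call lost without ecd RNAi 4 or double RNAi 4 (adjusted p = 0.0664 and 0.0555) and without the 4 libraries high in fat body RNA (adjusted p = 0.103). The catalytic subunit eIF2Bepsilon changed by -0.14 ± 0.069 (adjusted p = 0.123, and 0.0243 without ecd RNAi 1), eIF2Bbeta by -0.14 ± 0.064 (adjusted p = 0.0923, 0.0490 with the replicate block and 0.0479 without ecd RNAi 1) and eIF2Bgamma by -0.0027 ± 0.084 (adjusted p = 0.983).

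Among the 8 proteins of the cap complex, 1 rose and 3 fell with ecd RNAi, and 4 rose and 1 fell for double RNAi against ecd RNAi. The shares called were 50% and 62.5%, beside 47.8% and 47.3% of all tested genes. In replicate order, the helicase eIF4A stood at 57576, 57261, 51341 and 53746 normalized counts in controls, 75782, 72788, 66633 and 67568 with ecd RNAi and 57591, 56101, 55659.6 and 49936 with both. Both other groups lay below every ecd RNAi library and overlapped. Its log2 fold change was 0.36 ± 0.084 (limma adjusted p = 0.00319) and -0.37 ± 0.084 (adjusted p = 0.00310) for double RNAi against ecd RNAi. The exons of eIF4A overlap an annotated insertion of the transposon blood on the same strand, so the counting could have split reads between them. The part of this insertion in the count of eIF4A, or in its intron ratios given below, was not tested.

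The RNA-binding cofactors of this helicase, eIF4H1 and eIF4B, went the other way. In replicate order, eIF4H1 stood at 8620.0, 8098, 7836 and 8067 normalized counts in controls, 5211, 6254, 3927 and 5313 with ecd RNAi and 7556, 7488, 8307 and 7469.7 with both. The ecd RNAi libraries lay below all others and were the most spread. The log2 fold change of eIF4H1 was -0.67 ± 0.11 (limma adjusted p = 0.000206) and 0.59 ± 0.11 (adjusted p = 0.000617) for double RNAi against ecd RNAi. eIF4B stood at 7479, 7363, 7091 and 6859 in controls, 5978, 6416, 4873 and 5884 with ecd RNAi and 8035, 8172, 6712 and 6857 with both. It also had its lowest values with ecd RNAi, without overlap. The changes of eIF4B were -0.32 ± 0.088 (adjusted p = 0.00893, and 0.0766 without the 4 libraries high in fat body RNA) and 0.36 ± 0.088 (adjusted p = 0.00433).

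The scaffold eIF4G1, which joins the cap protein to eIF4A and eIF3, lies on 4:915297-930715 (BDGP6, minus strand). In replicate order, eIF4G1 stood at 21603, 20746, 20841 and 20891 in controls, 16335, 18713, 15372 and 16095 with ecd RNAi and 21633, 22544, 20726 and 21946 with both. Its ecd RNAi libraries lay below all others. It fell with ecd RNAi and was higher with double RNAi, with log2 changes of -0.34 ± 0.065 (limma adjusted p = 0.000771) and 0.39 ± 0.065 (adjusted p = 0.000323). The main cap-binding protein eIF4E1 stood at 7675, 7397, 6807 and 7157 in controls, 7169, 7276, 6302 and 6076 with ecd RNAi and 7839, 7816, 7552 and 7626 with both. Controls overlapped both RNAi groups, which did not overlap each other. The changes of eIF4E1 were -0.12 ± 0.064 (adjusted p = 0.157) and 0.21 ± 0.064 (adjusted p = 0.0191), the latter lost without ecd RNAi 3 or 4 (adjusted p = 0.0519 and 0.0598) and without the 4 libraries high in fat body RNA (adjusted p = 0.146).

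The repressive cap-binding protein eIF4EHP did not pass in any comparison, with log2 changes of -0.013 ± 0.096 (adjusted p = 0.927) and 0.13 ± 0.096 (adjusted p = 0.269), and shares exon sequence on its strand with Syx1A. eIF4E5 stood at 12.02, 44.04, 70.7 and 67.9 normalized counts in controls, 17.8, 25.7, 51.4 and 49.4 with ecd RNAi and 33.2, 31.6, 22.6 and 19.2 with both. Replicates 3 and 4 of the control and ecd RNAi groups were its highest libraries. In the same libraries the germline gene bam stood at 1.99, 4.90, 208 and 116 in controls and 1.11, 5.15, 160.0 and 93.8 with ecd RNAi, and the fat body storage protein Lsp2 at 194, 1594, 17176 and 6826 in controls and 688, 263, 5585 and 5649 with ecd RNAi. Their part in the level of eIF4E5 was not tested.

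eIF4G2, a scaffold known from the male germline, stood at 271, 449, 456 and 263 in controls, 476, 473, 681 and 185 with ecd RNAi and 538, 607, 821 and 2071 with both. The double RNAi libraries lay above all controls, and replicate 4 lay far above the rest. The log2 change of eIF4G2 was 1.31 ± 0.44 against control (limma adjusted p = 0.116) and 1.07 ± 0.44 against ecd RNAi (adjusted p = 0.0629), and the latter passed without ecd RNAi 3 or double RNAi 1 (adjusted p = 0.0354 and 0.0426). The authors' deposited table gives 1.49 against control, with an adjusted p of 0.0358. Its exons overlap those of CG33111 on the same strand.

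**Figure D3:**
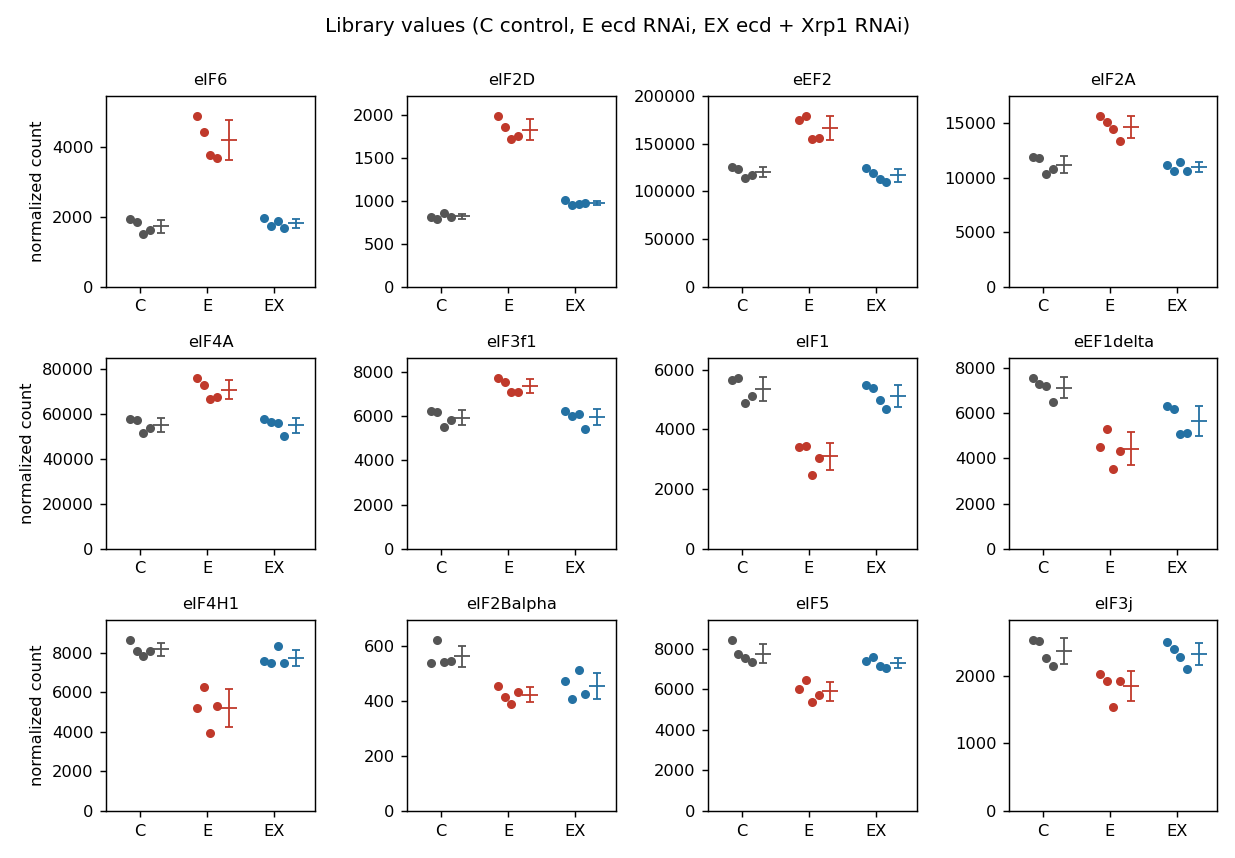
Normalized counts of 12 factors in each of the 12 libraries (points; C control, E ecd RNAi, EX double RNAi), with the mean ± SD of 4 libraries beside them; each axis starts at 0. eIF6 stood at 3677 to 4876 with ecd RNAi and at 1504 to 1966 in the other groups, and eIF1 at 2475 to 3447 with ecd RNAi and at 4687 to 5719 in the others.

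The 13 subunits of eIF3 did not move as a block. With ecd RNAi 1 rose and 3 fell, and the log2 changes ran from -0.36 for eIF3j to 0.31 for eIF3f1 with a median of 0.11. For double RNAi against ecd RNAi 2 rose and 2 fell. In each comparison 30.8% of the subunits were called, beside 47.8% and 47.3% of all tested genes. Without the 4 libraries high in fat body RNA 6 further factors passed as lower for double RNAi against ecd RNAi. They were eIF3b, eIF3e, eIF3h, eIF3k and eIF3m (adjusted p = 0.0455, 0.0231, 0.0222, 0.0213 and 0.0216) and the elongation factor eEF1gamma (adjusted p = 0.0119).

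In replicate order, eIF3f1, a subunit of the outer ring, stood at 6207, 6180.2, 5515 and 5811 normalized counts in controls, 7710.3, 7545, 7082 and 7104 with ecd RNAi and 6235, 6008, 6106 and 5430.5 with both. Its ecd RNAi libraries lay above all others. Its log2 changes were 0.31 ± 0.059 (limma adjusted p = 0.000748) and -0.31 ± 0.059 (adjusted p = 0.000880). eIF3l stood at 5574, 5571, 4934 and 5346 in controls, 6813, 6517, 5751 and 5369 with ecd RNAi and 4903, 5015, 4898 and 4692 with both. Its double RNAi libraries lay below all of the ecd RNAi group. The changes of eIF3l were 0.19 ± 0.073 (adjusted p = 0.0519) and -0.32 ± 0.073 (adjusted p = 0.00293). The first of these passed with the replicate block (adjusted p = 0.0312), without ecd RNAi 3 or 4 (adjusted p = 0.0411 and 0.0103) and without the 4 libraries high in fat body RNA (adjusted p = 0.00638). In the authors' deposited table it passed too, at 0.19 with an adjusted p of 0.0366.

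eIF3a, the largest subunit, stood at 16613, 15812, 15438 and 14998 normalized counts in controls, 13709.9, 13095, 11584 and 11970.2 with ecd RNAi and 16217, 15928, 15288 and 15455 with both. eIF3j, a loosely bound subunit that helps to clear the small subunit, stood at 2528, 2519, 2259 and 2143 in controls, 2026, 1919.6, 1533 and 1921 with ecd RNAi and 2499, 2397, 2280.3 and 2109 with both. For both genes the ecd RNAi libraries lay below all others. eIF3a changed by -0.32 ± 0.063 (limma adjusted p = 0.000909) and 0.32 ± 0.063 (adjusted p = 0.000953), and eIF3j by -0.36 ± 0.090 (adjusted p = 0.00529) and 0.33 ± 0.090 (adjusted p = 0.00857).

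eIF3d1, the cap-contacting subunit, stood at 9973, 9754, 9132 and 8888 in controls, 8970.1, 8970.5, 7473 and 7674 with ecd RNAi and 9329, 8956, 8343 and 8118 with both, and its control and ecd RNAi libraries overlapped. Its fall with ecd RNAi, -0.19 ± 0.075, was at the edge of the threshold (limma adjusted p = 0.0487). That call of eIF3d1 was lost under 13 of 26 alternatives, among them leaving out control 1, 2 or 3 (adjusted p = 0.126, 0.115 and 0.0601), ecd RNAi 3 or 4 (adjusted p = 0.130 and 0.126) or double RNAi 1, 2 or 3 (adjusted p = 0.0503, 0.0617 and 0.0608). The other 8 subunits did not pass with ecd RNAi. Their log2 changes were 0.16 for eIF3m, 0.15 for eIF3e, 0.12 for eIF3h, 0.11 for eIF3g1, 0.11 for eIF3i, 0.093 for eIF3b, -0.027 for eIF3k and -0.066 for eIF3c. Of these, eIF3m and eIF3e passed as higher with the replicate block (adjusted p = 0.0194 and 0.0226), and eIF3m also without ecd RNAi 3 (adjusted p = 0.0497).

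Of the 8 elongation factors 1 rose and 1 fell with ecd RNAi, 25% called beside 47.8% of all tested genes. In replicate order, eEF2, the translocase, stood at 125638, 123664, 114274 and 117074 normalized counts in controls, 174980.0, 178975, 154947 and 155739 with ecd RNAi and 124975, 119154, 113504 and 109964 with both. The ecd RNAi libraries lay above all others. The log2 fold change of eEF2 was 0.47 ± 0.11 with ecd RNAi (limma adjusted p = 0.00331) but -0.044 after quantile normalization (adjusted p = 0.687), so the direction turned with that scaling. That scaling gives every library the same set of values, so it compares only the rank of eEF2 within each library. In double RNAi against ecd RNAi discs eEF2 changed by -0.51 ± 0.11 (adjusted p = 0.00202), which also was not past the threshold after quantile normalization (adjusted p = 0.434).

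eEF1alpha1 stood at 289975, 288035, 255197 and 280885 normalized counts in controls, 372646, 352438, 315749 and 285929 with ecd RNAi and 281899, 270653, 277744 and 260911 with both. The 3 highest libraries were ecd RNAi 1 to 3, and ecd RNAi 4 lay within the controls. The changes of eEF1alpha1, 0.25 ± 0.16 (limma adjusted p = 0.232) and -0.28 ± 0.16 (adjusted p = 0.177), did not pass here. In the authors' deposited table both passed, at 0.25 with an adjusted p of 0.00506 and at -0.28 with an adjusted p of 0.00149.

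eEF1delta, a subunit of the exchange complex of eEF1A, had the second largest fall of the 44. In replicate order, eEF1delta stood at 7533, 7263, 7208 and 6462 normalized counts in controls, 4513, 5308, 3528 and 4322 with ecd RNAi and 6302, 6151, 5060.0 and 5112 with both. Every library of either RNAi group lay below all controls, and the RNAi groups overlapped. Its log2 fold change was -0.70 ± 0.11 (limma adjusted p = 0.000221) with ecd RNAi, 0.36 ± 0.11 (adjusted p = 0.0183) for double RNAi against ecd RNAi and -0.34 ± 0.11 (adjusted p = 0.116) against control. The second call of eEF1delta was lost without double RNAi 1 or 2 (adjusted p = 0.0589 and 0.0553) and without the 4 libraries high in fat body RNA (adjusted p = 0.174). The authors' deposited table calls the last change of eEF1delta, -0.33 with an adjusted p of 0.0484.

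The other exchange subunits did not pass: with ecd RNAi eEF1beta changed by -0.18 ± 0.078 (limma adjusted p = 0.0801, 0.0167 with the replicate block and 0.0258 without double RNAi 4) and eEF1gamma by 0.096 ± 0.089 (adjusted p = 0.410). In double RNAi against ecd RNAi discs eEF1gamma changed by -0.15 ± 0.089 (adjusted p = 0.185, and 0.0322 without ecd RNAi 4). The remaining elongation factors did not pass with ecd RNAi either. eEF5 changed by -0.26 ± 0.12 (adjusted p = 0.0837, 0.0253 with the replicate block and 0.0357 without ecd RNAi 2), eEF1alpha2 by 0.46 ± 0.32 (adjusted p = 0.267, and 0.0208 without ecd RNAi 3) and eEFSec by 0.050 ± 0.11 (adjusted p = 0.731).

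Genes that act on these factors or beside them were followed in 4 lists, of which 39 genes were tested. With ecd RNAi 16 of them rose and 13 fell, with a median log2 change of 0.13, and for double RNAi against ecd RNAi 13 rose and 15 fell, with a median of -0.022. Without the 4 libraries high in fat body RNA the counts were 15 and 10 with ecd RNAi and 9 and 17 for double RNAi against ecd RNAi. In those fits 4090 and 4123 of all 9652 tested genes were called. Against control, double RNAi changed 1, the fall of MCTS1. The shares called, 74.4% and 71.8% beside 47.8% and 47.3% of all tested genes, describe genes listed with earlier results known.

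Of 18 regulators of translation 10 rose and 5 fell with ecd RNAi, with a median log2 change of 0.30. The share called was 83.3%, beside 47.8% of all tested genes. Thor, the 4E-BP that binds eIF4E1 and blocks cap-dependent initiation, stood at 4.30, 11.5, 18.2 and 17.6 normalized counts in controls, 124, 129, 174 and 111 with ecd RNAi and 11.5, 23.4, 25.3 and 29.3 with both. Every ecd RNAi library was above all others, in a gene near the low end of the range tested. Thor rose by 3.43 ± 0.42 on the log2(value + 1) scale (limma adjusted p = 2.17e-05) and changed by -2.59 ± 0.42 for double RNAi against ecd RNAi (adjusted p = 0.000243). Lk6, the kinase of eIF4E, rose by 0.90 ± 0.077 (adjusted p = 9.91e-07), and crc, the fly ATF4 that is translated when eIF2 is limiting, by 0.70 ± 0.073 (adjusted p = 6.07e-06). The growth kinase S6k was next in size, with a rise of 0.65 ± 0.060 (adjusted p = 2.11e-06). The eIF2alpha kinases PEK and Gcn2, picked out after their values were seen, rose by 0.51 ± 0.068 (adjusted p = 4.08e-05) and 0.52 ± 0.068 (adjusted p = 4.07e-05). The 6 genes had changes of -2.59, -0.94, -0.63, -0.61, -0.43 and -0.45 for double RNAi against ecd RNAi, all past the threshold. PPP1R15 of the same list, also picked out after its value was seen, rose with ecd RNAi by 0.28 ± 0.089 (adjusted p = 0.0205). Its control and ecd RNAi libraries overlapped. For double RNAi against ecd RNAi it changed by -0.20 ± 0.089, which did not pass (adjusted p = 0.0816).

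The regulators that fell most were MCTS1 and DENR, partners that recycle small subunits and restart them, and whose domains are joined in the single protein eIF2D. In replicate order, MCTS1 stood at 1513, 1364, 1304 and 1308 normalized counts in controls, 774, 760.0, 623 and 718 with ecd RNAi and 1082, 980.2, 1058 and 934 with both, and DENR at 1150.3, 1156, 1066 and 991 in controls, 732, 687, 529 and 674 with ecd RNAi and 1231, 1124, 975 and 917 with both. For MCTS1 all 3 groups were separate, with the double RNAi discs between the others. For DENR the ecd RNAi libraries lay below all others. MCTS1 changed by -0.93 ± 0.081 (limma adjusted p = 1.06e-06), 0.50 ± 0.081 (adjusted p = 0.000246) and, against control, -0.44 ± 0.081 (adjusted p = 0.00839). DENR changed by -0.74 ± 0.11 (adjusted p = 0.000128) and 0.70 ± 0.11 (adjusted p = 0.000238), while eIF2D had risen by 1.16 with ecd RNAi. NAT1, an eIF4G-like protein that does not bind the cap protein, changed by -0.51 ± 0.071 (adjusted p = 6.53e-05) and 0.44 ± 0.071 (adjusted p = 0.000230).

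Of 7 genes of termination and ribosome rescue 3 rose and 3 fell with ecd RNAi, with a median log2 change of -0.12. The share called was 85.7%, beside 47.8% of all tested genes. HBS1, the GTPase that works with pelo on stalled ribosomes, stood at 1469.8, 1468, 1323 and 1319 normalized counts in controls, 3568, 3320.3, 2906 and 2798 with ecd RNAi and 1625, 1526, 1484 and 1534 with both, and rose by 1.17 ± 0.077 on the log2 scale (limma adjusted p = 8.74e-08). Clbn, which acts on nascent chains stuck on the large subunit, rose by 0.88 ± 0.075 (adjusted p = 9.64e-07), and the ribosome-splitting ATPase pix by 0.46 ± 0.064 (adjusted p = 5.99e-05). The release factors fell, eRF1 with -0.43 ± 0.065 (adjusted p = 0.000147) and eRF3 with -0.34 ± 0.063 (adjusted p = 0.000596). The ubiquitin ligase Ltn1 also fell, with -0.18 ± 0.054 (adjusted p = 0.0130), a call lost without the 4 libraries high in fat body RNA (adjusted p = 0.157) and after quantile normalization (adjusted p = 0.122). For double RNAi against ecd RNAi the changes were -1.02 for HBS1, -0.74 for Clbn, -0.45 for pix, 0.31 for eRF1 and 0.32 for eRF3, all past the threshold, and 0.027 for Ltn1, which did not pass.

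Of 8 mitochondrial translation factors 2 rose and 3 fell with ecd RNAi, with a median log2 change of 0.014. The share called was 62.5%, beside 47.8% of all tested genes. mIF3, the initiation factor that keeps mitochondrial subunits apart, stood at 295, 296, 254 and 301 normalized counts in controls, 2454, 2057, 2018 and 1948 with ecd RNAi and 273, 261, 258 and 254 with both. The ecd RNAi libraries were far above all others, with a change of 2.88 ± 0.083 (limma adjusted p = 8.46e-11) and of -3.01 ± 0.083 for double RNAi against ecd RNAi (adjusted p = 6.16e-11). The other initiation factor, mIF2, also picked out after its value was seen, changed by -0.017 ± 0.085 (adjusted p = 0.895). The elongation factor mEFTu2 rose by 0.37 ± 0.095 (adjusted p = 0.00587, and 0.178 without the 4 libraries high in fat body RNA). The recycling factor mRRF2 and the elongation factors mEFG1 and mEFTs fell, with -0.51 ± 0.086 (adjusted p = 0.000300), -0.37 ± 0.065 (adjusted p = 0.000470) and -0.30 ± 0.077 (adjusted p = 0.00600).

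Of 6 enzymes that place diphthamide on eEF2 or hypusine on eEF5, 1 rose and 2 fell with ecd RNAi, with a median log2 change of 0.14. The share called was 50%, beside 47.8% of all tested genes. Dph5, which methylates the diphthamide precursor, rose by 0.33 ± 0.099 (limma adjusted p = 0.0134). Dph1, of the complex that starts diphthamide, and nero, the hydroxylase that completes hypusine, fell, with -0.39 ± 0.10 (adjusted p = 0.00735) and -0.31 ± 0.073 (adjusted p = 0.00341).

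**Figure D4:**
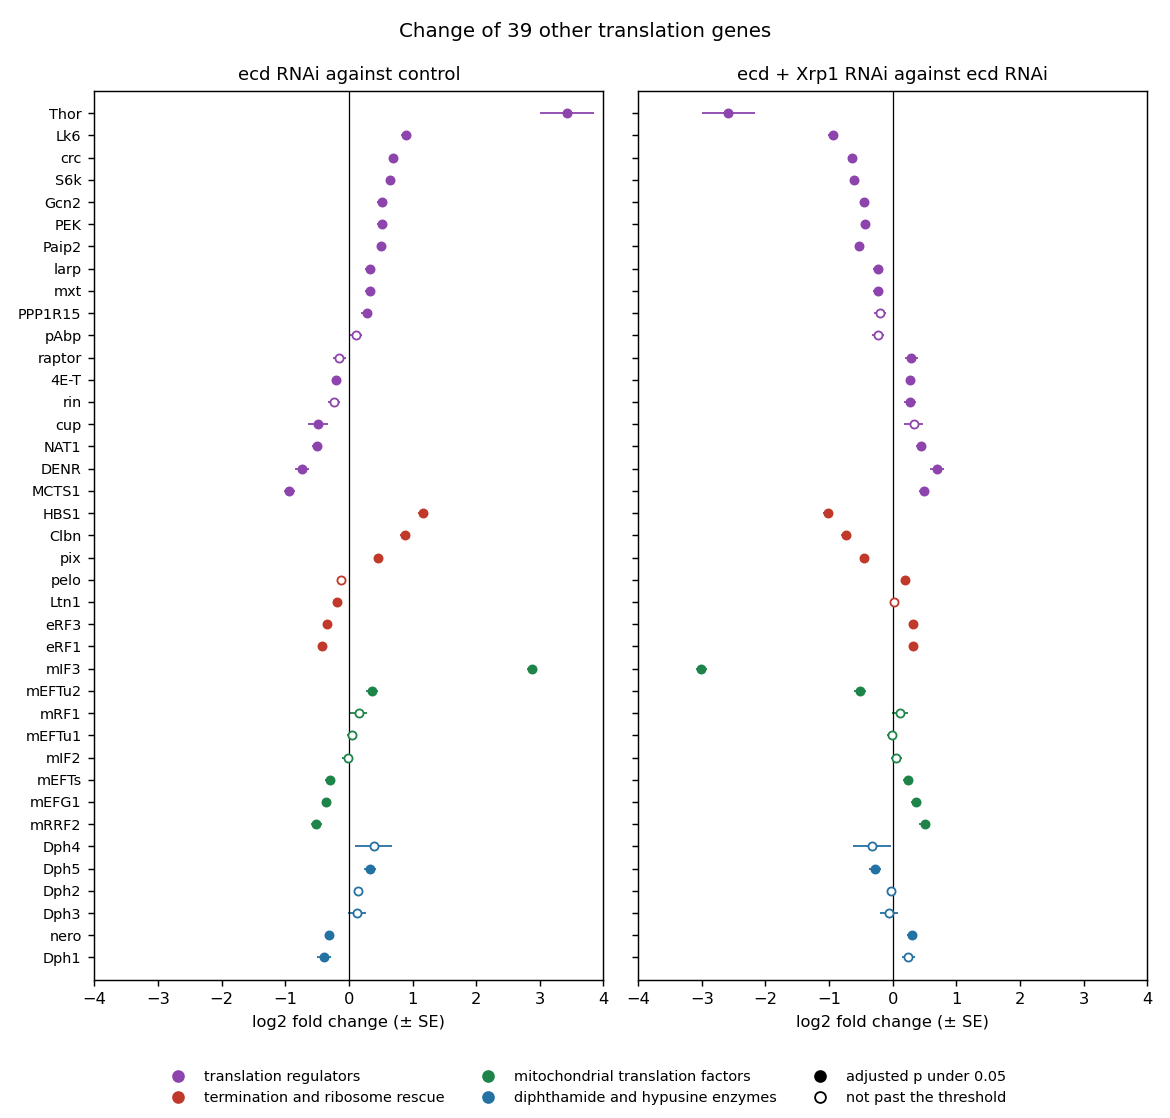
Log2 fold change ± SE (limma, 4 libraries per group) of 39 other translation genes in 4 lists for ecd RNAi against control (left) and double RNAi against ecd RNAi (right); filled points have an adjusted p under 0.05. Thor and mIF3 rose most with ecd RNAi, by 3.43 and 2.88, and MCTS1 fell most, with -0.93.

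The authors also deposited an intron retention ratio for single introns, as a mean per group, and 47 introns of 18 of the factors are listed. By the authors' deposited table, 4 of these entries passed for ecd RNAi against control, where 2.32% of all 17817 introns passed, none passed between the RNAi groups and 2 passed for double RNAi against control. The mean ratio was higher with ecd RNAi than in control for 36 of 47 entries, 76.6%, beside 64.0% of all introns in the table. The libraries behind these means could not be told apart by their labels, so no spread over replicates is given.

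The first of the introns past the threshold is the second of 15 introns of an eIF4G1 transcript, at 4:930024-930079 (BDGP6, minus strand), within the 5′ UTR and 56 bases long. Its ratio in the authors' deposited table was 6.52% in control, 24.5% with ecd RNAi and 19.2% with double RNAi, with an adjusted p of 6.84e-07 for ecd RNAi against control and 0.000827 for double RNAi against control. The next is the first intron of eIF5B, at 3L:3460099-3460171 (minus strand), between coding exons. The authors' deposited table gives ratios of 2.87%, 12.1% and 11.4% for it, with adjusted p-values of 4.36e-06 and 8.22e-06 for the same comparisons. The other 2 entries are overlapping forms of the last intron of eIF4A in the 3′ UTR, at 2L:5985221-5985342 and 2L:5985221-5985338 (plus strand), where some transcripts keep the sequence as exon. In the authors' deposited table the longer form had 22.7%, 39.2% and 33.1%, with an adjusted p of 0.0192 for ecd RNAi against control and 0.259 for double RNAi against control. eIF4G1 and eIF5B fell in their gene-level count with ecd RNAi and eIF4A rose. These introns were picked because they passed with ecd RNAi, and the other listed introns of eIF4G1 and eIF5B did not pass. Their mean ratio with both RNAi transgenes was nearer to that of ecd RNAi than to control, with no spread known. The gene-level counts of the 3 genes with both RNAi transgenes overlapped the controls.

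**Figure D5:**
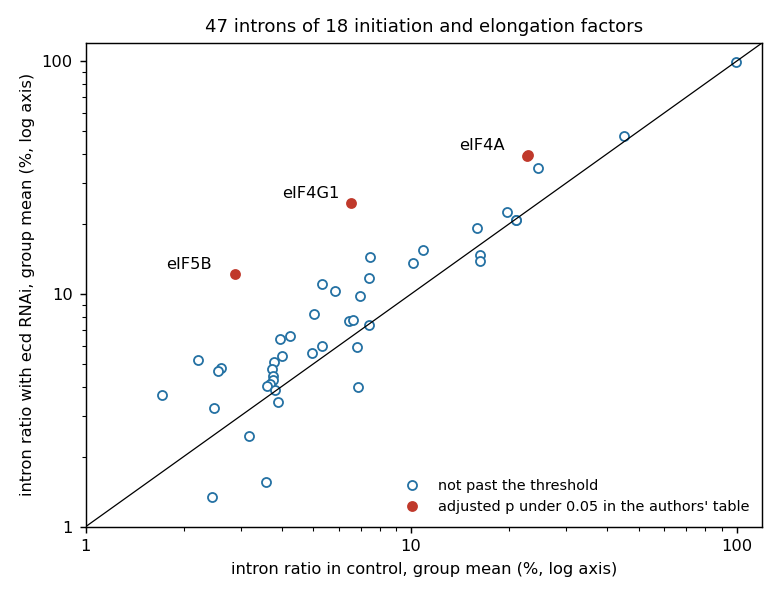
Intron ratio in control (x axis) and with ecd RNAi (y axis) for 47 introns of 18 factors, as group means in percent on log axes from the authors' deposited table; the line marks equal ratios and red points have an adjusted p under 0.05 there. The entries of eIF4G1, eIF5B and eIF4A that passed lie above the line, at 6.52% and 24.5%, 2.87% and 12.1%, and 22.7% and 39.2%.

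The 8 genes of the family below the minimum were eIF3d2, eIF3f2, eIF3g2, eIF4E3, eIF4E4, eIF4E6, eIF4E7 and eIF4H2, most of them second copies of the genes above. They were not tested. The highest value of eIF4E3 in any library was 15.5 normalized counts and that of eIF4E6 was 14.9, and eIF3g2 was listed at 0 in all 4 ecd RNAi libraries.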

How the data were processed

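Reads were made with a stranded kit after removal of ribosomal RNA, per the labels' protocols, whose accounts of the read layout and sequencer differ. Tools named in the submitters' processing notes are DESeq2 1.34.0, kallisto 0.46.1, cutadapt 3.5 and FastQC, with the build BDGP6. The authors deposited normalized counts per gene (signal, not raw counts), log2 fold changes and adjusted p-values, and intron ratios as a fraction per group mean. Whether counting used the strand is not stated, and the exons of 15 factors overlap those of a gene on the opposite strand. Depth in raw reads is unknown here, so no counting interval is given. Rows that name no gene held 5.65% to 7.40% of the signal with ecd RNAi, 0.452% to 0.515% in controls and 0.546% to 0.645% with double RNAi, and were left out of tests. 12 columns of per-sample intron values could not be tied to samples and were not used.

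log2(normalized count + 1) of genes with a mean of at least 10 was fitted with limma 3.58.1 (R 4.3.3) with a term per group over all 12 libraries and trended empirical Bayes moderation, and p-values were adjusted by Benjamini-Hochberg over 10179 genes. A fold change on this scale understates that of low genes. Tables and figures used Python 3.11.15, pandas 2.3.3 and matplotlib 3.10.9. The fit was also run on simulated data in which few genes changed and noise was drawn for each gene alone. That run does not show how the fit behaves when many genes change or libraries share differences. The members, lists and tests were chosen with earlier results of these data known. All 44 factors were described, the largest changes sample by sample, and up to 3 genes that rose and 3 that fell in each other list. S6k, PEK, Gcn2, PPP1R15 and mIF2 were added after their values were seen. Of 48 symbols in the other lists 40 were in the table.

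The replicate numbers in the labels were checked for pairing. Deviations from the group mean correlated at 0.235 to 0.559 between same-numbered control and ecd RNAi libraries, which meets the bar of 0.1 set for pairing, so the blocked values are printed beside the main values, which have no block. Each of these 4 control libraries correlated more highly with an ecd RNAi library of another number, at 0.474 to 0.572, so the pairing is uncertain. The numbers of the double RNAi group correlated at -0.131 to -0.347 with the others and met it nowhere. These are the numbers in the sample titles, and the descriptions number the libraries differently. By the descriptions' numbers the 3 shared control and ecd RNAi pairs correlated at 0.235 to 0.559, the 2 of ecd RNAi and double RNAi at 0.244 and -0.156, and the 2 of control and double RNAi at -0.131 and -0.266. Alternatives were another pseudocount, filter, scaling, weighting or set of groups, a replicate block, and each library left out in turn. Leaving out the 4 libraries high in fat body RNA, Lsp2 as a covariate and the block in 2 groups were chosen after seeing the data.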

Additional observations from a re-analysis of the deposited data

Results flagged for a closer look

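Of 132 combinations of a factor and a group of 4 libraries, 7 held a library set apart from its group by a gap past Dixon's critical value, and chance gives about 1 in 20. In the control group, replicate 1 was the highest for eIF4G1 at 21603 normalized counts, replicate 4 the lowest for eIF1A at 6501, and replicate 2 the highest for eIF2Balpha at 622. In the double RNAi group, replicate 4 was the highest for eIF5B at 7112 and for eIF4EHP at 5902 and the lowest for eEFSec at 181, and replicate 3 was the highest for eIF4H1 at 8307. No explanation was tested.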

How the results depend on the processing

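The comparison of ecd RNAi with control was refitted under 26 alternatives and the others under 25 each, 12 of which left out 1 library. Of the changes of single factors, that of eEF2 with ecd RNAi turned, to -0.044 after quantile normalization (adjusted p = 0.687). With array weights 10 factors rose with ecd RNAi in place of 6, beside 2475 of all tested genes in place of 2280. For double RNAi against ecd RNAi the factors that fell, 7, became 12 after quantile normalization, 11 with array weights, 13 without the 4 libraries high in fat body RNA and 11 with Lsp2 as a covariate. Over all tested genes 2097 fell in the main fit and, in the same order of alternatives, 2043, 2420, 2016 (of 9652) and 2281. For double RNAi against control 447 of all tested genes passed, 737 after quantile normalization, 676 with equal medians and 1486 with array weights. With Lsp2 as a covariate 629 passed, without the 4 libraries high in fat body RNA 474, and with 1 library left out 242 to 585. In that comparison the factors that rose numbered 0 to 1 with 1 library left out, and those that fell 2 after quantile normalization, 2 with equal medians, 2 with array weights, 1 with Lsp2 as a covariate and 0 to 1 with 1 library left out. Of the other translation genes 1 rose there after quantile normalization and 2 with array weights, and 2 fell with equal medians, 2 with array weights and 2 without the 4 libraries high in fat body RNA. The cause was not tested.

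With the replicate block over all 12 libraries 9 factors rose and 17 fell with ecd RNAi, beside 2210 and 2655 of all tested genes. With the block in control and ecd RNAi alone 9 rose and 18 fell (5283 of all genes called). For double RNAi against ecd RNAi the block over all libraries gave 15 rises and 8 falls, beside 2765 and 2103 over all tested genes. The block in control and ecd RNAi alone changed no call of a factor beyond those given in the text. Without raw counts the precision from depth is unknown. The groups hold 4 pooled samples each, and the RNAi reached only part of each disc.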

Other observations

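Among the genes of the family below the minimum, eIF4E6, an eIF4E-like gene, was listed at 6.06, 4.88, 14.9 and 4.30 normalized counts in controls, 2.21, 2.57, 1.22 and 1.98 with ecd RNAi and 6.83, 6.45, 6.19 and 8.38 with double RNAi, so every ecd RNAi library lay below all others. eIF4H2, a second eIF4H gene, was listed at 0.996, 0.9802, 0.706 and 1.72 in controls, 11.1, 5.15, 9.84 and 1.97 with ecd RNAi and 7.80, 4.06, 2.05 and 2.40 with both, where the RNAi libraries lay above all controls. Both genes were picked out after their values were seen, at levels of a few normalized counts, and neither was tested.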
